A study of Caenorhabditis elegans with 32 samples.

Results

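The response of pgph-2 overexpressing (pgph-2 o/e) Caenorhabditis elegans to glucose was measured by RNA-seq of whole animals, with 4 libraries from animals on 2% glucose and 4 libraries from animals on NGM, the standard nematode growth medium. These 8 libraries were taken by their labels from the 32 libraries of the series. The pgph-2 o/e strain carries a transgene that expresses pgph-2 from its own promoter (pgph-2p::pgph-2) together with myo-2p::mCherry, a red marker of pharyngeal muscle. The transgene was integrated by UV irradiation and the strain was outcrossed repeatedly, and all 8 libraries carry this transgene. For comparison, WT animals (4 libraries on glucose, 4 on NGM) and pgph-2 o/e; hlh-30(tm1978) animals (4 on glucose, 4 on NGM) were used. The latter carry the same transgene with a deletion allele of the transcription factor gene hlh-30. Animals with hlh-30(tm1978) but without the transgene (4 on glucose, 4 on NGM) were used for the sperm score, the fits over all libraries and a few summed levels. All groups have the stage label L4/young adult, and all RNA was poly(A) selected from whole extracts. The comparison asks which genes differ between glucose and NGM when the enzyme is overexpressed, and whether that difference is the same as in WT.

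The enzyme encoded by pgph-2 is a glycerol 3-phosphate phosphatase. It removes the phosphate from glycerol 3-phosphate, a compound made from glycolysis, and so releases glycerol and draws carbon away from the synthesis of fat and from the lower part of glycolysis. In C. elegans, the end of larval life and the first hours of adulthood bring several programs that whole-animal RNA reports on: sperm are made in the last larval stage, oocytes and yolk proteins (vitellogenins) are made in the adult, and cuticle collagens and molting enzymes are expressed in waves around each molt.

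The total count per library was 17036463 to 20800784 on glucose and 18253710 to 22335392 on NGM. The replicates of each medium resembled each other, with a correlation of log2 CPM (the count of a gene scaled to the library size, after TMM normalization) across genes of 0.972 to 0.984 within glucose and 0.964 to 0.989 within NGM, against 0.882 to 0.936 between the media. The first principal component held 69.2% of the variance and placed the glucose libraries at 70.3, 79.9, 38 and 50.7, against -65.1, -56.6, -56.0 and -61.2 for the NGM libraries. Library 1 on NGM stood apart on the second component (12.3% of the variance), with a score of 59.2 against -30.04, -25.8 and -6.76 in the other NGM libraries and -5.57 to 8.52 in the glucose libraries. Its summed level of ribosomal protein genes was 222300 CPM, against 122800 to 144500 CPM in the other NGM libraries and 140500 to 167000 CPM on glucose. Counts without this library are given below. As a check of the label of whole animals, the summed level of intestine markers was 8867 to 9820 CPM on glucose and 8705 to 14930 CPM on NGM, and that of neuron markers 811.5 to 902.6 CPM on glucose and 677.1 to 1025 CPM on NGM. Of the male markers, 4 of 7 had enough counts to be tested, with summed levels of 13.98 to 17.5 CPM on glucose and 13.8 to 20.6 CPM on NGM.

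**Figure D1:**
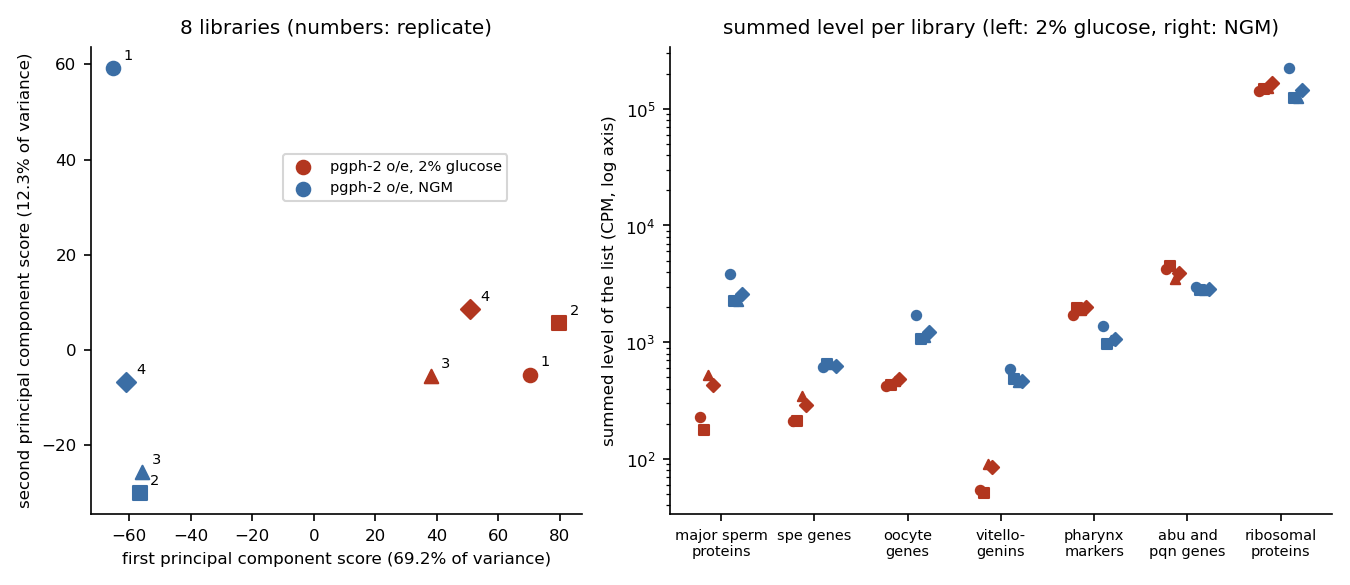
Scores of the 8 pgph-2 o/e libraries on the first and second principal component (left, arbitrary units, share of variance on each axis), and the summed level of gene lists in each library in CPM on a log scale (right), glucose beside NGM. The media separate on the first axis, NGM library 1 lies apart at 59.2 on the second axis, and summed major sperm proteins (178 to 519 CPM on glucose, 2266 to 3826 CPM on NGM) do not overlap between the media.

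The overexpressed gene was checked first. pgph-2 (F44E7.2; chromosome V, 5770455 to 5771767 in WBcel235) had 106, 112, 133 and 143 CPM in the 4 glucose libraries, against 86.6, 64.5, 60.8 and 65.8 CPM in the 4 NGM libraries. All glucose libraries lay above all NGM libraries (log2 fold change 0.83, SE 0.14, edgeR adjusted p = 0.00073), a difference that passed the adjusted p but not the fold limit used for calls. In WT the gene averaged 67.8 ± 4.29 CPM on glucose and 37.8 ± 5.87 CPM on NGM (SD, n = 4 each), so on either medium every pgph-2 o/e library lay above every WT library. The pgph-2 o/e libraries on NGM reached about the WT mean on glucose. This excess over WT is well below the induction of pgph-2 mRNA that the paper gives for the strain against its control. The log2 fold change of glucose over NGM was 0.85 in WT, and the difference between the genotypes was -0.03 (SE 0.18, edgeR adjusted p = 0.925). The counts do not separate transcripts of the transgene from those of the endogenous gene. hlh-30 (chromosome IV, 4015615 to 4019039), which encodes the worm homolog of TFEB, a regulator of autophagy and lysosomal genes, averaged 139 ± 9.30 CPM on glucose and 121 ± 17.5 CPM on NGM (log2 fold change 0.20, SE 0.11, edgeR adjusted p = 0.181), and its libraries overlapped.

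Glucose was accompanied by a broad difference in pgph-2 o/e animals. Of 15022 genes with enough counts to test, 999 (6.65%) were higher and 1968 (13.1%) were lower on glucose in edgeR's quasi-likelihood test, at a Benjamini-Hochberg adjusted p of at most 0.05 and a log2 fold change of at least 1 in size. These genes are said below to have risen or fallen. At a log2 fold change of at least 3 in size, 67 genes rose and 167 fell, and at 4 or more, 10 rose and 51 fell. On the adjusted p alone 2598 genes (17.3%) were higher and 3233 (21.5%) lower, and in 2792 genes (18.6%) all glucose libraries lay above all NGM libraries, against 3199 genes (21.3%) in which all lay below. The median over all tested genes was 0.007. TMM scaling places the typical change near 0, so this median is no check of a shift shared by most genes. The counts of the lists below are read against the shares of 6.65% and 13.1%. Without NGM library 1, 1011 genes were higher and 2042 lower. In WT, the same comparison called 91 genes higher (0.596%) and 89 lower (0.583%) of 15271 tested, and on the adjusted p alone 181 (1.19%) and 370 (2.42%). The WT counts depended on single libraries, at 38 higher and 54 lower without WT glucose library 4 and 288 higher and 154 lower without WT NGM library 1. The study describes the 4 libraries per group as biological replicates, and the labels do not say whether they came from separate cultures, so the spread behind each p-value may be technical in part.

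Sperm transcripts fell together on glucose. Major sperm proteins (MSPs) are small cytoskeletal proteins that drive crawling of the sperm and also signal to oocytes. Of 30 MSP genes counted, 29 had enough counts to test, and all 29 fell on glucose, with log2 fold changes of -4.09 to -2.72 and a median of -3.02. The summed MSP level was 230.8, 178.0, 519.4 and 431.2 CPM on glucose, against 3826, 2268, 2266 and 2608 CPM on NGM. Even the highest glucose library stood below the lowest NGM library, and glucose libraries 3 and 4 held more MSP reads than glucose libraries 1 and 2. MSP genes are near-identical copies, so the split of reads among single members is uncertain. msp-31 (R05F9.13; chromosome II, 4916179 to 4916562) had 18.3, 16, 41.2 and 34.9 CPM on glucose, against 283, 171, 177 and 204 CPM on NGM (log2 fold change -2.91, SE 0.30, edgeR adjusted p = 3.98e-05). msp-65 averaged 2.14 ± 1.52 CPM on glucose and 37.5 ± 11.8 CPM on NGM (SD, n = 4 each), a log2 fold change of -4.09. In whole animals, fewer cells of a type and less RNA per cell cannot be told apart.

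The wider list of sperm genes moved the same way. Of 85 sperm genes tested, the MSPs among them, 71 fell, with a median log2 fold change of -2.72. Among 34 spermatogenesis-defective (spe) genes, defined by mutants with faulty sperm, 22 fell, with a median of -1.41. spe-8, which encodes a tyrosine kinase needed to activate sperm, had 1.43, 2.02, 3.75 and 4.56 CPM on glucose, against 16.97, 12.8, 13.2 and 17.3 CPM on NGM (log2 fold change -2.34, SE 0.31, edgeR adjusted p = 0.000186). spe-18 averaged 27.9 ± 13.8 CPM on glucose and 131 ± 22.5 CPM on NGM, a log2 fold change of -2.22. In WT no sperm gene was called by edgeR, and the median went the other way at 0.58 (48 of 87 sperm genes were higher on glucose at an unadjusted p under 0.05, and DESeq2 called 1). For a score of sperm content, the mean log2 CPM of 88 sperm genes was taken per library. The score was 2.00 ± 0.66 on glucose and 4.34 ± 0.08 on NGM in pgph-2 o/e animals, 4.23 ± 0.38 on glucose and 3.76 ± 0.30 on NGM in WT, and 2.97 ± 0.22 on glucose and 2.94 ± 0.34 on NGM in pgph-2 o/e; hlh-30 animals (SD, n = 4 each). In hlh-30 animals without the transgene it was also lower on glucose, at 1.25 ± 1.17 against 2.67 ± 0.66 on NGM (SD, n = 4 each), with ranges that overlapped (0.259 to 2.775 on glucose, 1.700 to 3.191 on NGM).

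Oocyte transcripts fell with them. Of 26 oocyte genes 24 fell, with a median of -1.67. puf-5 (chromosome II, 8575541 to 8577722), which encodes an RNA-binding protein of late oocytes, had 3.83, 3.57, 7.04 and 7.25 CPM on glucose, against 54.5, 32.5, 36.0 and 35.0 CPM on NGM (log2 fold change -2.85, SE 0.26, edgeR adjusted p = 1.73e-05). Eggshell genes were among those furthest down. perm-2 had 0.800, 0.714, 1.03 and 1.67 CPM on glucose and 32.5, 24.9, 23.6 and 24.2 CPM on NGM, and perm-4, its neighbour on chromosome IV, 2.69, 1.73, 2.88 and 3.50 CPM on glucose and 69.95, 54.1, 59.0 and 55.8 CPM on NGM. Both, which are needed for the permeability barrier of the egg, had about the same size of fall, with log2 fold changes of -4.61 and -4.45. egg-1, needed to form the eggshell after fertilization, fell by 2.71 and cbd-1, a chitin-binding protein of the eggshell, fell by 1.37 on the log2 scale. Germline genes that are not specific to gametes moved less: of 35 tested, 3 fell, a smaller share than the 13.1% of all genes, with a median of -0.42, and 18 were lower on the adjusted p alone. gld-1, a repressor of translation in the germ line, averaged 163 ± 25.2 CPM on glucose and 368 ± 70.5 CPM on NGM (log2 fold change -1.17, SE 0.16, edgeR adjusted p = 0.000182). deps-1, a P granule gene, averaged 28.3 ± 3.27 CPM on glucose and 61.5 ± 15.4 CPM on NGM, and its log2 fold change of -1.11 became -0.91 without NGM library 1. glh-1, a P granule helicase, averaged 269 ± 23.96 CPM on glucose and 322 ± 12.5 CPM on NGM (log2 fold change -0.25, SE 0.10, edgeR adjusted p = 0.0586). Of 10 embryo markers 1, pal-1, had enough counts for a test, and their summed level was 8.95 to 10.8 CPM on glucose against 16.7 to 20.3 CPM on NGM.

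All 6 vitellogenin genes, which encode the yolk lipoproteins that the adult intestine exports to oocytes, fell. Their summed level was 54.05, 51.3, 89.9 and 84.6 CPM on glucose, against 594, 486, 456 and 465 CPM on NGM. vit-2 (chromosome X, 5101032 to 5106173) had 12.3, 12.3, 19.4 and 22.8 CPM on glucose, against 276, 213, 195 and 204.6 CPM on NGM (log2 fold change -3.73, SE 0.22, edgeR adjusted p = 9.24e-07). vit-6 averaged 27.8 ± 10.4 CPM on glucose and 191 ± 19.2 CPM on NGM, a log2 fold change of -2.77. vit-1 fell least, with 23.9 ± 4.92 CPM on glucose and 60.4 ± 5.88 CPM on NGM, a log2 fold change of -1.34. Reads from vit-3, vit-4 and vit-5, which are near-identical, cannot be assigned with certainty. They averaged 0.827 ± 0.408, 0.436 ± 0.382 and 0.322 ± 0.237 CPM on glucose, against 15.8 ± 1.76, 3.52 ± 1.15 and 6.91 ± 2.23 CPM on NGM. The value of vit-4 depended on 1 library, with a log2 fold change of -3.02 that became -3.69 without glucose library 2. No vitellogenin was called in WT by edgeR, where the median was 0.95 (3 of 6 were higher on glucose at an unadjusted p under 0.05 and 1 was called by DESeq2). The summed intestine markers, 8867 to 9820 CPM on glucose and 8705 to 14930 CPM on NGM, overlapped, and none of the 9 tested was called (4 higher and 1 lower at an unadjusted p under 0.05, and DESeq2 called 0).

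Cuticle genes moved strongly in both directions. The cuticle is a layered collagen coat that is rebuilt at each molt, with different collagens at different stages. Of 136 collagen genes tested 42 rose and 47 fell, and the log2 fold changes ran from -5.05 to 4.37. The summed level of all collagens, 35980 to 46660 CPM on glucose and 37280 to 57010 CPM on NGM, overlapped. Among those that rose, col-41 (T10B10.1; chromosome X, 15175039 to 15176481) had 1238, 1090.0, 446 and 771 CPM on glucose, against 63.2, 32.5, 36.0 and 40.7 CPM on NGM (log2 fold change 4.37, SE 0.34, edgeR adjusted p = 6.01e-06). col-54 averaged 126 ± 36.7 CPM on glucose and 8.66 ± 1.65 CPM on NGM, a log2 fold change of 3.87. Of the risen genes, those that took the most reads were the 5 collagens col-144, col-125, col-166, col-10 and ram-2. They averaged 2921, 2699, 2164, 1983 and 1601 CPM on glucose, against 1018, 1064, 699, 638 and 651 CPM on NGM, with log2 fold changes of 1.30 to 1.64. For all 5 the lowest glucose library exceeded the highest NGM library, and NGM library 1 was the highest of its group.

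Other collagens nearly left the libraries. col-60 (F22D6.10; chromosome I, 7105319 to 7106924) had 3.31, 2.62, 2.06 and 5.93 CPM on glucose, against 122, 97.3, 92.6 and 105 CPM on NGM (log2 fold change -4.89, SE 0.27, edgeR adjusted p = 6.18e-07). col-63 (chromosome I, 8243693 to 8244961) had 30.4, 19.8, 52.5 and 37.4 CPM on glucose, against 1094, 814, 808 and 873 CPM on NGM (log2 fold change -4.67, SE 0.28, edgeR adjusted p = 1.09e-06). col-120 averaged 4.53 ± 1.09 CPM on glucose and 109 ± 14.7 CPM on NGM, a log2 fold change of -4.58. In all 3 genes the media were more than 10-fold apart in every pair of libraries. rol-1, named for the rolling movement of its mutants, had 52.4, 36.2, 71.4 and 54.97 CPM on glucose, against 1355, 979, 975 and 1068 CPM on NGM (log2 fold change -4.34, SE 0.22, edgeR adjusted p = 3.36e-07). col-19 (ZK1193.1; chromosome X, 421707 to 422776), the collagen gene used as a marker of the adult hypodermis, had 1.09, 0.892, 1.65 and 2.28 CPM on glucose, against 20.8, 14.8, 14.9 and 19.4 CPM on NGM (log2 fold change -3.54, SE 0.27, edgeR adjusted p = 5.58e-06). Of the fallen genes with the most reads, 3 of 5 were collagens: sqt-3, col-38 and col-71 averaged 980.3, 114 and 103 CPM on glucose, against 2108, 1648 and 1641 CPM on NGM. The change of sqt-3 was the smallest of these, with a log2 fold change of -1.101 that became -0.89 without NGM library 1 and -0.96 without glucose library 3. The other 2 were E01G4.6, with 142 ± 60.5 CPM on glucose and 2212 ± 326 CPM on NGM, and Y39B6A.1, with 936 ± 34.1 CPM on glucose and 2331 ± 333 CPM on NGM.

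**Figure D2:**
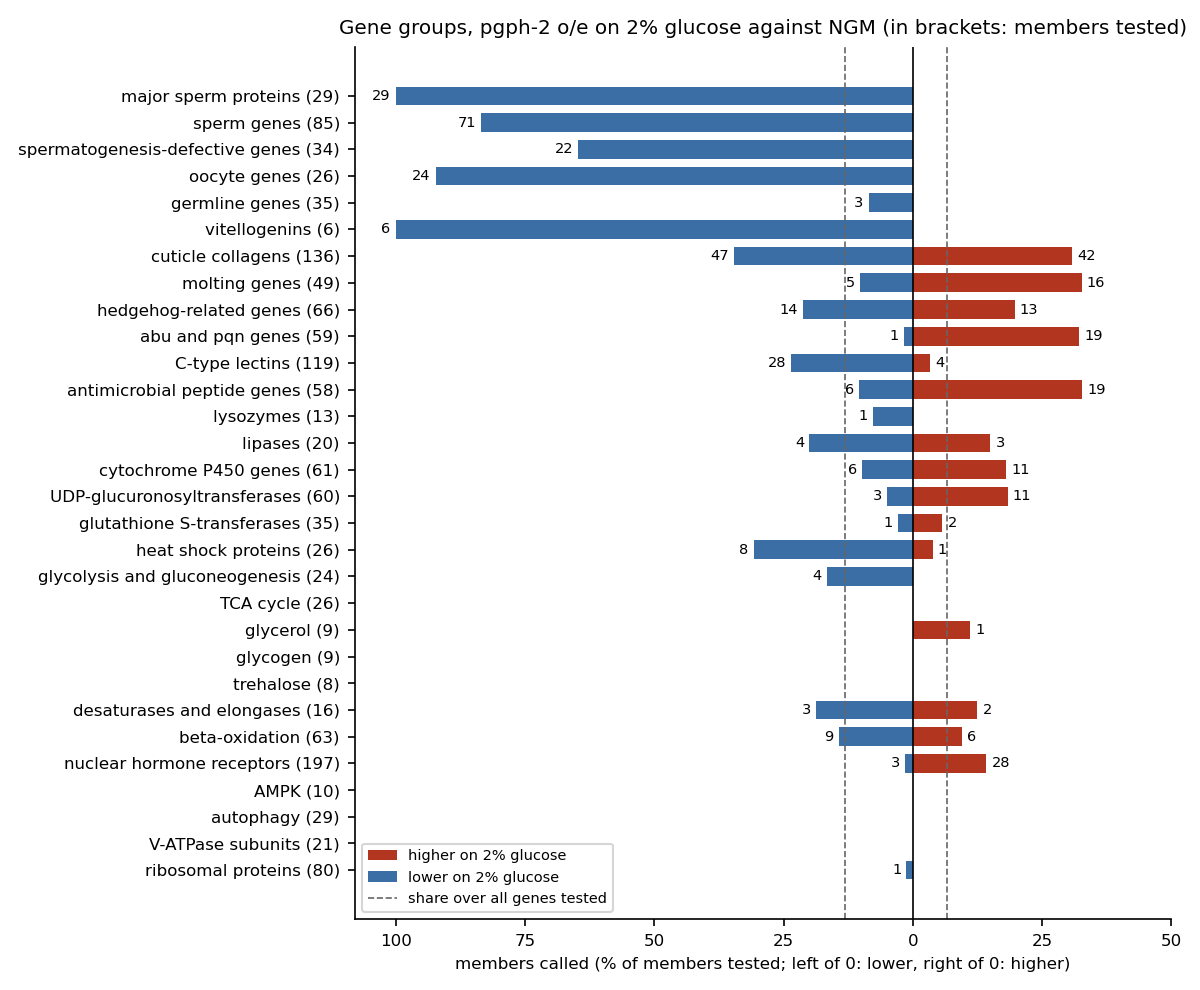
Share of tested members of each gene list that rose (right) or fell (left) on glucose in pgph-2 o/e animals, in percent, for 30 lists; dashed lines mark the shares over all genes tested, 6.65% higher and 13.1% lower. Sperm, oocyte and vitellogenin genes lie far to the left, collagens reach far on both sides, and abu and pqn genes, molting genes and antimicrobial peptide genes lie mostly to the right.

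Molting genes rose more often than they fell. Of 49 molting genes 16 rose and 5 fell, with a median of 0.24. nhr-25 (chromosome X, 13008493 to 13013953), a nuclear hormone receptor needed for molting, had 32.97, 34.5, 19.2 and 22.7 CPM on glucose, against 4.42, 4.08, 6.20 and 5.15 CPM on NGM (log2 fold change 2.46, SE 0.22, edgeR adjusted p = 1.46e-05). Glucose libraries 1 and 2 were the highest and all glucose libraries exceeded all NGM libraries. nhr-25 was counted with the hypodermis markers, not with the 49 molting genes. Of 10 hypodermis markers 1, nhr-25, rose and 2 fell, against 6.65% and 13.1% over all genes, with a median of -0.39 and 2 above 0. Their summed level was 632.4 to 926.8 CPM on glucose against 998.3 to 1242 CPM on NGM, without overlap. nas-30, an astacin metalloprotease, averaged 45.9 ± 11.6 CPM on glucose and 6.37 ± 0.847 CPM on NGM, a log2 fold change of 2.85. mlt-7, a peroxidase that crosslinks the cuticle, averaged 114 ± 17.4 CPM on glucose and 31.5 ± 5.46 CPM on NGM, a log2 fold change of 1.86. dpy-1, whose mutants are short and which is not among the 49 molting genes, averaged 109 ± 36.5 CPM on glucose and 7.78 ± 0.505 CPM on NGM. Its log2 fold change was 3.81. The summed molting genes nevertheless lay lower on glucose, at 4324 to 5506 CPM against 5756 to 6759 CPM on NGM.

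Hedgehog-related genes split, with 13 of 66 higher and 14 lower, both larger shares than the 6.65% and 13.1% over all genes. These secreted proteins descend from the same ancestor as Hedgehog and are expressed in epidermis and cuticle-forming cells. The ground-like genes grl-4 and grl-21 rose: grl-4 (chromosome IV, 7309835 to 7310760) had 209.9, 279.7, 218 and 238 CPM on glucose, against 31.4, 22.1, 22.2 and 24.04 CPM on NGM (log2 fold change 3.25, SE 0.15, edgeR adjusted p = 1.71e-07), and grl-21 averaged 74.3 ± 11.2 CPM on glucose and 8.04 ± 0.972 CPM on NGM. The warthog genes wrt-4 and wrt-6 fell. wrt-4 averaged 27.99 ± 9.76 CPM on glucose and 191 ± 19.9 CPM on NGM, and wrt-6 22.8 ± 4.70 CPM on glucose and 165 ± 11.6 CPM on NGM, with log2 fold changes of -2.77 and -2.85. Of 59 genes of the abu and pqn families, which encode glutamine- and asparagine-rich proteins, many of them parts of the pharyngeal cuticle, 19 rose and 1 fell, with a median of 0.46. abu-15 (chromosome V, 5158623 to 5159897) had 78.0, 94.8, 62.5 and 76.2 CPM on glucose, against 6.995, 6.41, 6.24 and 6.22 CPM on NGM (log2 fold change 3.59, SE 0.14, edgeR adjusted p = 1.42e-07). Its neighbours abu-6, abu-7 and abu-8 averaged 55.2 ± 12.5, 63 ± 12.4 and 153 ± 25.2 CPM on glucose, against 4.81 ± 0.957, 5.94 ± 2.94 and 15.2 ± 2.92 CPM on NGM. These genes are close copies, so reads may be split among them. Nuclear hormone receptors rose in 28 of 197 cases and fell in 3, against 6.65% and 13.1% over all genes, with a median of 0.54. Their summed level was 2922 to 2994 CPM on glucose against 2020 to 2427 CPM on NGM.

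Pharynx markers were higher on glucose. Of 11 markers 2 rose, 9 passed the adjusted p in the upward direction, and the summed level was 1699, 1969, 1890 and 2002 CPM on glucose, against 1387, 962, 1038 and 1061 CPM on NGM. myo-5 (chromosome V, 8109051 to 8118130), a pharyngeal myosin, had 104, 118.6, 93.8 and 99.0 CPM on glucose, against 27.6, 46.8, 42.5 and 37.6 CPM on NGM (log2 fold change 1.43, SE 0.15, edgeR adjusted p = 4.82e-05). myo-2, the pharyngeal myosin whose promoter also drives the mCherry marker of the transgene, averaged 787 ± 84.2 CPM on glucose and 425 ± 99.3 CPM on NGM (log2 fold change 0.89, SE 0.16, edgeR adjusted p = 0.00133). Its log2 fold change was 1.09 without NGM library 1. pha-4, the transcription factor of pharynx identity, averaged 34.9 ± 4.64 CPM on glucose and 21.7 ± 1.17 CPM on NGM (log2 fold change 0.68, SE 0.11, edgeR adjusted p = 0.000812). In WT no pharynx marker was called by edgeR and the median was 0.05 (0 of 11 at an unadjusted p under 0.05, and 0 by DESeq2). Among 10 genes of pharyngeal pumping 2 rose. eat-2, an acetylcholine receptor subunit that sets the pumping rate, averaged 2.77 ± 0.268 CPM on glucose and 1.21 ± 0.510 CPM on NGM (log2 fold change 1.21, SE 0.35, edgeR adjusted p = 0.0178), with a log2 fold change of 0.94 without NGM library 2. Body muscle and neuron markers gave no calls by edgeR (0 of 10 and 0 of 13; 3 and 5 were higher at an unadjusted p under 0.05, and DESeq2 called 0 of either).

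**Figure D3:**
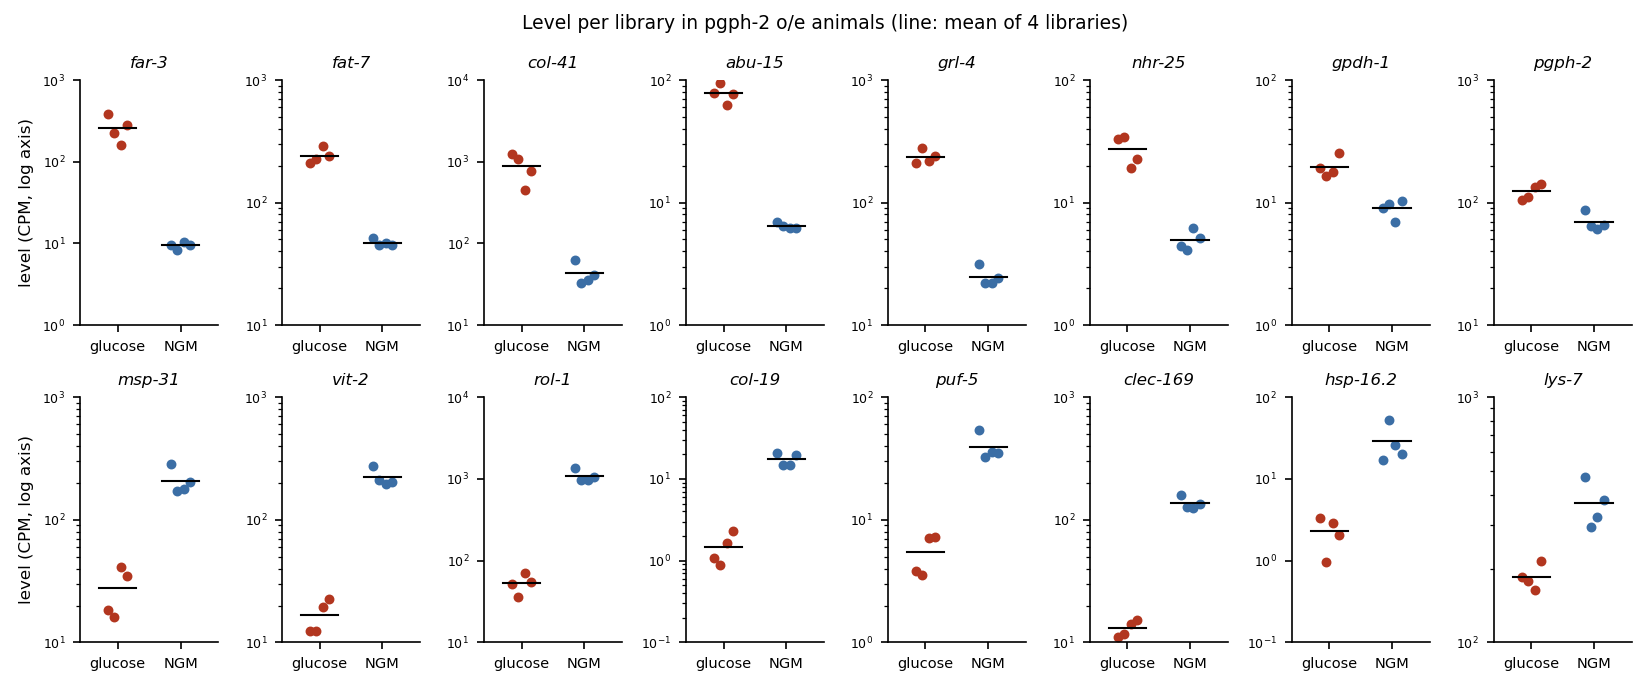
Level of 16 genes in each of the 8 pgph-2 o/e libraries, in CPM on a log scale, glucose left of NGM in each panel, with bars at the group means. The media do not overlap in any panel shown, with far-3, fat-7, col-41, abu-15, grl-4, nhr-25, gpdh-1 and pgph-2 higher on glucose and msp-31, vit-2, rol-1, col-19, puf-5, clec-169, hsp-16.2 and lys-7 lower.

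Among genes of innate immunity, C-type lectins, secreted sugar-binding proteins, fell in 28 cases, rose in 4 and did not pass the test in 87, with a median of -0.38. The rises were a smaller share than the 6.65% over all genes and the falls a larger share than the 13.1%. clec-169 (chromosome IV, 1261326 to 1264543) had 10.97, 11.8, 14.1 and 15.3 CPM on glucose, against 161, 126, 126 and 135 CPM on NGM (log2 fold change -3.38, SE 0.14, edgeR adjusted p = 1.50e-07). clec-61 averaged 2.99 ± 0.862 CPM on glucose and 28.99 ± 4.04 CPM on NGM, a log2 fold change of -3.27. Lysozymes, which cut bacterial cell walls, had a summed level of 2386 to 2599 CPM on glucose against 3165 to 4624 CPM on NGM, and 1 of 13 fell. lys-7 (chromosome V, 3481419 to 3482602), an antibacterial lysozyme, had 184, 178, 163 and 216 CPM on glucose, against 472, 296, 325 and 382 CPM on NGM. Its libraries did not overlap, and its log2 fold change of -0.99 (SE 0.15, edgeR adjusted p = 0.00046) fell just short of the fold limit but reached it without NGM library 2 or 3 (-1.09 and -1.05) or glucose library 4 (-1.07). ilys-5, an invertebrate-type lysozyme, averaged 749 ± 49.9 CPM on glucose and 1331 ± 198 CPM on NGM (log2 fold change -0.83, SE 0.13, edgeR adjusted p = 0.00066). Antimicrobial peptide genes rose in 19 of 58 cases and fell in 6. nlp-29 (chromosome V, 3984413 to 3984849), an epidermal peptide induced by wounding and fungal infection, had 12.7, 16.6, 21.2 and 23.6 CPM on glucose, against 2.35, 5.34, 3.84 and 3.06 CPM on NGM (log2 fold change 2.34, SE 0.27, edgeR adjusted p = 7.56e-05). fipr-3 averaged 16.1 ± 5.23 CPM on glucose and 2.18 ± 0.526 CPM on NGM, a log2 fold change of 2.89. spp-5, a saposin-like intestinal peptide, fell with 383 ± 17.8 CPM on glucose and 792 ± 129 CPM on NGM (log2 fold change -1.04, and -0.92 without NGM library 1). The pals genes, which take part in the response to intracellular pathogens, had a summed level of 101, 104, 84.1 and 84.8 CPM on glucose, against 42.03, 59.8, 62.7 and 49.4 CPM on NGM, and 3 of 16 rose.

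The summed levels of lipases and of lysosomal proteases were lower on glucose, with no overlap between the media, while few proteases passed the test. Lipases summed to 444.5 to 481.5 CPM on glucose and 616.8 to 770.3 CPM on NGM, a difference that lay in lipl-5 (below). Lysosomal proteases summed to 18660 to 20500 CPM on glucose and 20560 to 34120 CPM on NGM. The gap between the media was narrow for the proteases, and NGM library 1 was the highest. Lysosomal lipases break down stored fat in acidic vesicles. lipl-1 (chromosome V, 12920007 to 12922116) had 2.63, 4.22, 3.29 and 3.34 CPM on glucose, against 15.7, 10.9, 17.1 and 17.4 CPM on NGM (log2 fold change -2.17, SE 0.21, edgeR adjusted p = 2.22e-05). lipl-5 averaged 221 ± 19.2 CPM on glucose and 463 ± 77.5 CPM on NGM, and its log2 fold change of -1.06 became -0.93 without NGM library 1. Over 20 lipases 3 rose and 4 fell, with a median of 0.00, against 6.65% and 13.1% over all genes. Among 21 lysosomal proteases 1 rose and 1 fell, smaller shares than over all genes, and on the adjusted p alone 3 were higher and 7 lower. asp-12, an aspartic protease, averaged 200.4 ± 42.5 CPM on glucose and 100.3 ± 19.8 CPM on NGM and sat on the fold limit with a log2 fold change of 1.003, which was 0.90 to 0.94 without NGM library 2 or 3 or glucose library 2 or 3, and just under the limit without NGM library 4. cpz-1, cathepsin Z, averaged 254 ± 56.2 CPM on glucose and 519 ± 64.5 CPM on NGM, and its log2 fold change of -1.03 became -0.92 without NGM library 1 and -0.90 without glucose library 3. The 21 V-ATPase subunits, which acidify the lysosome, and 29 autophagy genes gave no calls by edgeR. At an unadjusted p under 0.05, 1 V-ATPase gene was lower and 5 autophagy genes were higher and 4 lower, and DESeq2 called 0 of either list.

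Detoxification genes rose in part. Of 61 cytochrome P450 genes 11 rose and 6 fell, a larger share of rises than the 6.65% over all genes and a smaller share of falls than the 13.1%. cyp-33C8 (chromosome V, 3800776 to 3803454) had 74.6, 106, 93.7 and 116 CPM on glucose, against 6.995, 10.1, 10.9 and 9.16 CPM on NGM (log2 fold change 3.39, SE 0.17, edgeR adjusted p = 3.71e-07). cyp-13A5 (chromosome II, 9798276 to 9800363) had 12.6, 12.8, 15.9 and 18.6 CPM on glucose, against 45.2, 56.8, 52.6 and 44.6 CPM on NGM (log2 fold change -1.73, SE 0.15, edgeR adjusted p = 1.01e-05). UDP-glucuronosyltransferases, which conjugate hydrophobic compounds to a sugar, rose in 11 of 60 cases and fell in 3, and their summed level was 1914 to 2047 CPM on glucose against 1335 to 1467 CPM on NGM. ugt-62, ugt-19 and ugt-16 averaged 515 ± 76.2, 80.2 ± 11.44 and 79.5 ± 9.02 CPM on glucose, against 176 ± 14.7, 15.7 ± 1.45 and 27.8 ± 3.56 CPM on NGM, with log2 fold changes of 1.55, 2.36 and 1.52. In glutathione S-transferases, 2 of 35 rose and 1 fell, neither share above the 6.65% and 13.1% over all genes. Their summed level ran the other way from that of the UDP-glucuronosyltransferases, at 629 to 704 CPM on glucose against 827 to 1065 CPM on NGM. gst-10, which acts on lipid peroxidation products, averaged 17.5 ± 2.62 CPM on glucose and 50.1 ± 5.32 CPM on NGM (log2 fold change -1.52, SE 0.13, edgeR adjusted p = 1.01e-05).

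The glycerol pathway, in which pgph-2 acts, was higher on glucose in small steps. Its summed level was 705.7 to 812.1 CPM on glucose against 523.4 to 561.0 CPM on NGM without overlap, 7 of 9 tested genes passed the adjusted p in the upward direction, and 1, gpdh-1, reached the fold limit. gpdh-1 (F47G4.3; chromosome I, 14075836 to 14078214), the glycerol 3-phosphate dehydrogenase induced by osmotic stress, had 19.3, 16.5, 17.6 and 25.2 CPM on glucose, against 9.06, 9.67, 7.003 and 10.3 CPM on NGM (log2 fold change 1.13, SE 0.17, edgeR adjusted p = 0.000451). Without glucose library 4, which was the highest, its log2 fold change was 0.99. gpdh-2, the second cytosolic dehydrogenase, had 181, 179, 165 and 186 CPM on glucose, against 143, 123, 113 and 122 CPM on NGM (log2 fold change 0.51, SE 0.10, edgeR adjusted p = 0.00171), and its log2 fold change in WT was 0.52. The log2 fold change in pgph-2 o/e animals minus that in WT was -0.02 (SE 0.11, edgeR adjusted p = 0.918). gpdh-3 averaged 107 ± 3.28 CPM on glucose and 114 ± 18.5 CPM on NGM (log2 fold change -0.09, SE 0.12, edgeR adjusted p = 0.591) and its libraries overlapped. The paralog pgph-3 (chromosome V, 5762334 to 5763846) had 37.9, 43.2, 58.4 and 69.9 CPM on glucose, against 29.4, 32.02, 32.6 and 30.1 CPM on NGM (log2 fold change 0.76, SE 0.17, edgeR adjusted p = 0.00488), whereas pgph-1 had too few counts for the test, with 0.267 ± 0.128 CPM on glucose and 0.203 ± 0.285 CPM on NGM. R11F4.1, a predicted glycerol kinase, averaged 96.1 ± 15.4 CPM on glucose and 73.5 ± 11.7 CPM on NGM (log2 fold change 0.39). The acyltransferases acl-4, acl-5 and acl-6, which use glycerol 3-phosphate to begin glycerolipid synthesis, averaged 63.4 ± 6.98, 31.8 ± 4.25 and 70.7 ± 2.60 CPM on glucose, against 46.3 ± 1.93, 24.5 ± 3.88 and 48.6 ± 3.65 CPM on NGM, with log2 fold changes of 0.46, 0.38 and 0.55.

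Central carbon metabolism gave few calls. Of 24 genes of glycolysis and gluconeogenesis 4 fell, a share close to that of all genes: pck-3, gpd-1, pfk-1.2 and gpd-4. In the fit with the sperm score (below), 0 of 24 were called. pck-3, of the phosphoenolpyruvate carboxykinase family, had 2.86, 4.04, 8.12 and 8.26 CPM on glucose, against 27.5, 24.3, 28.9 and 27.6 CPM on NGM (log2 fold change -2.21, SE 0.29, edgeR adjusted p = 0.000162). gpd-1 and gpd-4, which encode glyceraldehyde 3-phosphate dehydrogenases, averaged 17.6 ± 0.279 and 15.1 ± 2.26 CPM on glucose, against 44.6 ± 11.1 and 30.4 ± 11.2 CPM on NGM. gpd-4 was at the fold limit (log2 fold change -1.002, and -0.72 without NGM library 1, -0.99 without NGM library 4, -0.92 without glucose library 1 and -0.97 without glucose library 2). pfk-1.2, a phosphofructokinase, had 5.43, 5.23, 12.4 and 8.26 CPM on glucose, against 10.9, 22.4, 17.5 and 19.4 CPM on NGM, and its libraries overlapped (log2 fold change -1.16, SE 0.29, edgeR adjusted p = 0.00948). The 7 pentose phosphate genes and 26 TCA cycle genes gave no calls by edgeR (2 and 0 higher, 0 and 4 lower at an unadjusted p under 0.05, and 0 in DESeq2).

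Glycogen and trehalose are the sugar stores of the worm. None of 9 glycogen genes was called by edgeR (1 higher and 5 lower at an unadjusted p under 0.05, and 0 in DESeq2), and their summed level was 1706 to 1817 CPM on glucose against 1877 to 2386 CPM on NGM. gsy-1 (chromosome II, 12866448 to 12878104), glycogen synthase, had 112, 110.1, 131 and 139 CPM on glucose, against 206, 156, 152 and 178 CPM on NGM (log2 fold change -0.49, SE 0.12, edgeR adjusted p = 0.00864). agl-1, the debranching enzyme, averaged 53.5 ± 1.94 CPM on glucose and 64.8 ± 2.83 CPM on NGM (log2 fold change -0.27, SE 0.08, edgeR adjusted p = 0.0203), and pygl-1, glycogen phosphorylase, 415 ± 12.6 CPM on glucose and 537 ± 115 CPM on NGM (log2 fold change -0.37, SE 0.14, edgeR adjusted p = 0.0614). Of 4 alpha-glucosidase genes, aagr-1 and aagr-4 lay lower, with 75.8 ± 4.51 and 148 ± 14.7 CPM on glucose, against 149 ± 25.9 and 279 ± 18.2 CPM on NGM (log2 fold changes -0.97 and -0.91). Without NGM library 2 or 3 the value of aagr-1 was -1.05 and -1.01, past the fold limit. aagr-2, aagr-3, gyg-1 (glycogenin) and T04A8.7 (a predicted branching enzyme) had log2 fold changes of 0.12, 0.16, 0.14 and 0.21, and none of them passed the adjusted p. In the trehalose list of 8 genes, 0 were called by edgeR (2 higher at an unadjusted p under 0.05, and 0 in DESeq2). tps-1, trehalose 6-phosphate synthase, averaged 52.5 ± 2.06 CPM on glucose and 37.6 ± 7.33 CPM on NGM (log2 fold change 0.48, SE 0.13, edgeR adjusted p = 0.0121), while tps-2 averaged 97.6 ± 7.75 CPM on glucose and 115 ± 18.8 CPM on NGM (log2 fold change -0.24, SE 0.12, edgeR adjusted p = 0.143). The phosphatase gob-1 and the trehalases tre-1, tre-2, tre-3, tre-4 and tre-5 had log2 fold changes of 0.00, -0.01, 0.23, 0.00, -0.03 and 0.65, with overlapping libraries in each. tre-5 reached 1.01 without NGM library 2.

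Fat genes held the largest rise among genes that averaged 5 CPM or more over the 8 libraries and did not overlap between the media. far-3 (F15B9.1; chromosome V, 12996818 to 12997524), which encodes a secreted protein that binds fatty acids and retinol, had 379, 222, 159.6 and 279 CPM on glucose, against 9.69, 8.40, 10.3 and 9.62 CPM on NGM (log2 fold change 4.78, SE 0.25, edgeR adjusted p = 4.68e-07). The lowest glucose library was more than 10-fold above the highest NGM library. fat-7 (F10D2.9; chromosome V, 7151356 to 7153146), a stearoyl-CoA desaturase, had 209, 228, 292 and 239 CPM on glucose, against 51.8, 45.1, 46.4 and 45.1 CPM on NGM (log2 fold change 2.36, SE 0.12, edgeR adjusted p = 3.28e-07). fat-5 (chromosome V, 17723780 to 17726825), a palmitoyl-CoA desaturase, had 122, 102, 121 and 127 CPM on glucose, against 56.2, 46.6, 44.7 and 44.5 CPM on NGM (log2 fold change 1.30, SE 0.11, edgeR adjusted p = 9.42e-06). These 2 were the only desaturases or elongases of 16 to rise, and 3 elongases fell. elo-8, an elongase gene, averaged 2.67 ± 1.098 CPM on glucose and 12.9 ± 2.06 CPM on NGM, a log2 fold change of -2.25. dgat-2, which completes triglyceride synthesis, had 58.7, 67.0, 75.3 and 80.9 CPM on glucose, against 34.1, 27.1, 25.02 and 32.02 CPM on NGM (log2 fold change 1.26, SE 0.13, edgeR adjusted p = 4.34e-05), and was the 1 of 19 genes of fat synthesis and storage that rose. Of 63 genes of beta-oxidation, the breakdown of fatty acids, 6 rose and 9 fell, shares not far above the 6.65% and 13.1% over all genes. acdh-8 and acs-10, an acyl-CoA dehydrogenase and an acyl-CoA synthetase, averaged 8.85 ± 3.92 and 11.7 ± 5.34 CPM on glucose, against 40.9 ± 1.25 and 50.3 ± 10.99 CPM on NGM, with log2 fold changes of -2.20 and -2.09. In the fit with the sperm score (below), the values of elo-8, acdh-8 and acs-10 changed sign. lbp-8, a lysosomal carrier of fatty acids and chosen after its values were seen, had 1.54, 2.20, 2.21 and 1.37 CPM on glucose, against 15.9, 13.9, 13.6 and 16.35 CPM on NGM (log2 fold change -3.02, SE 0.20, edgeR adjusted p = 2.05e-06).

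Heat shock genes fell in 8 of 26 cases and rose in 1. hsp-16.41 (chromosome V, 1805233 to 1805875), a small heat shock protein, had 0.800, 1.01, 1.03 and 1.57 CPM on glucose, against 11.6, 51.6, 21.8 and 16.9 CPM on NGM (log2 fold change -4.51, SE 0.48, edgeR adjusted p = 4.89e-05). Without NGM library 2 the log2 fold change was -3.91. Its neighbour and close copy hsp-16.2 had 3.37, 0.952, 2.93 and 2.08 CPM on glucose, against 17.03, 53.1, 26.1 and 20.03 CPM on NGM (log2 fold change -3.63, SE 0.43, edgeR adjusted p = 8.89e-05). hsp-70 (chromosome I, 9320361 to 9322511), the inducible chaperone, had 4.57, 5.65, 6.01 and 5.88 CPM on glucose, against 22.4, 110.1, 46.1 and 33.8 CPM on NGM (log2 fold change -3.26, SE 0.44, edgeR adjusted p = 0.000197), and -2.62 without NGM library 2. In all 3 genes NGM library 2 was the highest and NGM library 1 the lowest of the NGM libraries, and every NGM library stood above every glucose library. hsp-1, the constitutive member of the HSP70 family, averaged 2624 ± 153 CPM on glucose and 2719 ± 583 CPM on NGM (log2 fold change -0.05, SE 0.17, edgeR adjusted p = 0.856). cysl-2 and sqrd-1, which act on cyanide and hydrogen sulfide and were chosen after their values were seen, fell together. cysl-2 had 32.5, 31.5, 39.3 and 32.4 CPM on glucose, against 189.7, 134, 132 and 148 CPM on NGM (log2 fold change -2.15, SE 0.14, edgeR adjusted p = 1.59e-06), and sqrd-1 averaged 2.45 ± 0.490 CPM on glucose and 8.09 ± 1.17 CPM on NGM, a log2 fold change of -1.72. The 15 oxidative stress enzymes gave no calls by edgeR (2 higher at an unadjusted p under 0.05, and 0 in DESeq2).

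Osmotic stress genes split, 4 of 11 rising and 2 falling. Besides gpdh-1 and nlp-29 above, hmit-1.1, a transporter of myo-inositol, had 50.3, 67.1, 39.8 and 62.9 CPM on glucose, against 14.1, 18.2, 20.96 and 19.7 CPM on NGM (log2 fold change 1.59, SE 0.18, edgeR adjusted p = 6.05e-05). osm-8, whose loss activates the osmotic response, had 22.2, 17.1, 13.9 and 11.9 CPM on glucose, against 57.7, 45.3, 44.6 and 51.9 CPM on NGM (log2 fold change -1.61, SE 0.18, edgeR adjusted p = 6.07e-05). The media did not overlap in either gene. aqp-8 was the 1 of 9 aquaporins that rose, with 105 ± 27.6 CPM on glucose and 50.6 ± 6.23 CPM on NGM (log2 fold change 1.06), but it slipped under the fold limit without glucose library 4 (0.91), or without glucose library 3 or NGM library 2 (0.995 each).

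The AMP-activated kinase (AMPK) and longevity regulators stayed under the fold limit. None of 10 AMPK genes was called by edgeR (1 higher and 1 lower at an unadjusted p under 0.05, and 0 in DESeq2). aak-2, the catalytic subunit tied to lifespan, had 79.1, 78.3, 76.8 and 82.4 CPM on glucose, against 102, 77.0, 72.2 and 74.2 CPM on NGM (log2 fold change -0.04, SE 0.12, edgeR adjusted p = 0.833). aak-1, the other catalytic subunit, averaged 25.1 ± 3.75 CPM on glucose and 37.8 ± 3.03 CPM on NGM (log2 fold change -0.59, SE 0.12, edgeR adjusted p = 0.00305), and the gamma subunit aakg-3 4.34 ± 0.787 CPM on glucose and 2.56 ± 0.203 CPM on NGM (log2 fold change 0.76, SE 0.22, edgeR adjusted p = 0.017). The log2 fold changes of aakb-1, aakb-2, aakg-1, aakg-2, aakg-4, aakg-5 and the upstream kinase gene par-4 were -0.05, -0.09, -0.14, -0.14, -0.05, 0.04 and -0.20, with overlapping libraries in each. Of 20 longevity transcription factors 0 were called by edgeR, but 8 lay higher on the adjusted p alone (9 at an unadjusted p under 0.05, and 0 in DESeq2). daf-16, the FOXO factor of insulin signaling, averaged 195 ± 7.55 CPM on glucose and 167 ± 4.99 CPM on NGM (log2 fold change 0.23, SE 0.08, edgeR adjusted p = 0.0427), while skn-1, the Nrf factor, averaged 130.0 ± 5.88 CPM on glucose and 129 ± 12.1 CPM on NGM (log2 fold change 0.02, SE 0.09, edgeR adjusted p = 0.916). These are transcript levels and do not report on the activity of kinases or factors.

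The remaining genes of largest change were mixed. amt-1, an ammonium transporter, had 8.29, 13.2, 14.4 and 18.3 CPM on glucose, against 1.09, 0.972, 1.38 and 0.622 CPM on NGM (log2 fold change 3.72, SE 0.30, edgeR adjusted p = 8.21e-06). B0205.13 averaged 85.0 ± 15.2 CPM on glucose and 6.57 ± 1.93 CPM on NGM, and C29F3.3 15.3 ± 1.74 CPM on glucose and 1.17 ± 0.1254 CPM on NGM. idpp-12, idpc-7 and nspb-11 averaged 35.2 ± 6.51, 51.5 ± 10.3 and 10.3 ± 2.03 CPM on glucose, against 2.25 ± 0.219, 3.59 ± 1.04 and 0.778 ± 0.537 CPM on NGM. Among those that fell, gtnt-17 had 0.628, 0.535, 0.823 and 0.253 CPM on glucose, against 4.30, 14.8, 19.3 and 11.43 CPM on NGM (log2 fold change -4.46, SE 0.49, edgeR adjusted p = 5.65e-05). C14F11.4 averaged 1.84 ± 0.685 CPM on glucose and 44.4 ± 4.16 CPM on NGM, and ttr-14, of the transthyretin-related family, 2.42 ± 0.783 CPM on glucose and 49.5 ± 27.9 CPM on NGM. Histone genes, most of which lack poly(A) tails, were called higher in 3 of 34 cases and lower in 3, against 6.65% and 13.1% over all genes. Of these, the linker histone gene his-24 averaged 122 ± 30.4 CPM on glucose and 33.8 ± 8.54 CPM on NGM, and his-70, of the histone H3 family, 6.75 ± 2.78 CPM on glucose and 21.1 ± 4.22 CPM on NGM.

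The response was then set against that of WT. The glucose effect in pgph-2 o/e animals minus that in WT was above 0 in 992 genes (6.27%) and below 0 in 2239 genes (14.2%) of 15816 tested, by edgeR's interaction contrast at the same limits, and on the adjusted p alone in 2245 (14.2%) and 3097 (19.6%). This contrast uses the same pgph-2 o/e libraries as the counts above. Sperm, oocyte and yolk genes lay below 0: 29 of 29 MSPs, 25 of 26 oocyte genes and 6 of 6 vitellogenins. For msp-31 the difference was -3.62 (SE 0.44, edgeR adjusted p = 2.03e-05), with WT at 172 ± 60.4 CPM on glucose and 107.7 ± 31.5 CPM on NGM. For vit-2 it was -4.33 (SE 0.58, edgeR adjusted p = 3.88e-05), with WT at 180.2 ± 128 CPM on glucose and 121 ± 35.4 CPM on NGM. col-60 differed by -6.68 (SE 0.64, edgeR adjusted p = 5.19e-06), and WT averaged 171 ± 107.5 CPM on glucose and 50.5 ± 24.5 CPM on NGM. col-41 differed by 5.22 (SE 0.57, edgeR adjusted p = 1.23e-05), and WT averaged 27.5 ± 8.25 CPM on glucose and 50.1 ± 31.4 CPM on NGM. grl-4, cyp-33C8 and dgat-2 differed by 3.61, 3.50 and 0.88, the last short of the fold limit. For the abu genes the size of the difference rested partly on WT NGM library 3, without which abu-15 was 2.41 against 3.04 and abu-6 was 2.13 against 3.13.

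**Figure D4:**
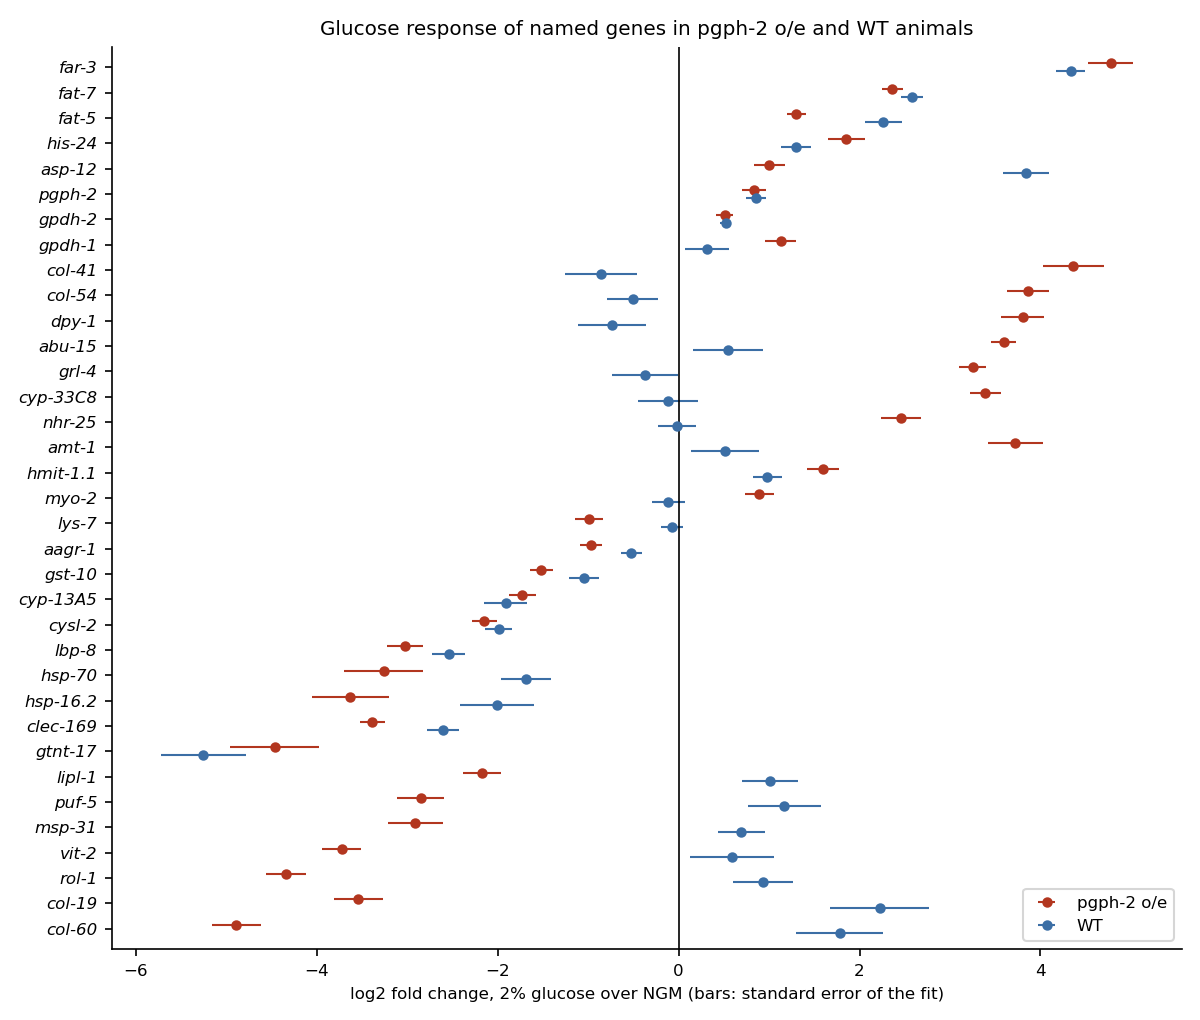
Log2 fold change of glucose over NGM with its standard error for named genes, pgph-2 o/e beside WT. far-3 (4.78 and 4.33), fat-7 (2.36 and 2.58) and cyp-13A5 (-1.73 and -1.91) lie close together in the genotypes, whereas col-60 (-4.89 and 1.78) and vit-2 (-3.73 and 0.59) lie on opposite sides of 0.

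A small set of genes was called in the same direction in both genotypes: 25 of the 947 risen genes that were tested in WT (2.64%), and 43 of the 1945 fallen genes (2.21%), against background shares of 0.596% and 0.583%. In the opposite direction, 2 of the 947 risen genes were lower in WT and 20 of the 1945 fallen genes were higher. far-3 averaged 273 ± 15.9 CPM on glucose and 13.6 ± 3.38 CPM on NGM in WT, a log2 fold change of 4.33, and the difference was 0.44 (SE 0.29, edgeR adjusted p = 0.274). fat-7 averaged 237 ± 29.1 CPM on glucose and 39.9 ± 5.28 CPM on NGM in WT, with a difference of -0.23 (SE 0.16, edgeR adjusted p = 0.294). fat-5 rose more in WT (log2 fold change 2.26, difference -0.96, edgeR adjusted p = 0.00586), as did asp-12 (3.84, difference -2.85, edgeR adjusted p = 1.23e-05). Among the fallen genes were gtnt-17, clec-169, cyp-13A5, lbp-8, cysl-2, sqrd-1, gst-10, hsp-16.2 and hsp-70, with WT log2 fold changes of -5.25, -2.61, -1.91, -2.54, -1.99, -1.03, -1.05, -2.01 and -1.69. The differences of these named genes between genotypes ran from -1.63 for hsp-16.2 to 0.78 for gtnt-17. Of all 43 fallen genes called in both genotypes 5 passed the limits for a difference, and of the 25 risen genes 4. Among these fallen genes, hsp-16.41 (WT log2 fold change -2.42, difference -2.10), F09C8.1 and hsp-70 fell more in pgph-2 o/e animals. dhs-8 and C09B8.4 fell less than in WT. hsp-70 passed the limits for a difference (-1.58, edgeR adjusted p = 0.0321) but lost the call on leaving out NGM library 2 or glucose library 1 or 2 of pgph-2 o/e, or NGM library 1, 2 or 4 or glucose library 4 of WT, with edgeR adjusted p up to 0.0715.

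Against pgph-2 o/e; hlh-30 animals, the glucose effect was above 0 in 1033 genes (6.54%) and below 0 in 1925 (12.2%) of 15801 tested, and on the adjusted p alone in 2405 (15.2%) and 2745 (17.4%). The same pgph-2 o/e libraries enter this contrast. All 29 MSPs, 24 of 26 oocyte genes and all 6 vitellogenins were again below 0. The mean levels were also lower on glucose, with ranges that overlapped, in a genotype outside this contrast. In hlh-30 animals without the transgene the MSPs summed to 234.6 ± 259.7 CPM on glucose and 601.2 ± 253.3 CPM on NGM, and the vitellogenins to 65.4 ± 57.6 CPM on glucose and 169.8 ± 64 CPM on NGM (SD, n = 4 each), ratios of 0.390 and 0.385 against 0.124 and 0.140 in pgph-2 o/e animals. The difference between these 2 genotypes was not tested. The difference was -5.74 for rol-1, -6.86 for col-19 and -4.17 for vit-2, and 3.52 for abu-15. pgph-2 itself averaged 83.6 ± 8.48 CPM on glucose and 126 ± 13.7 CPM on NGM in the double mutant, so that its difference was 1.46 (edgeR adjusted p = 5.64e-06). Its mean was higher than in pgph-2 o/e animals on NGM and lower on glucose, so the genotypes of this contrast also differed in the level of pgph-2. For gpdh-1 the difference was 3.17 (edgeR adjusted p = 1.74e-05), with 15.7 ± 9.41 CPM on glucose and 62.6 ± 18.1 CPM on NGM in the double mutant, and for pgph-3 it was 1.72 (edgeR adjusted p = 2.19e-05). far-3 and fat-7 differed by 0.29 and -0.55 (edgeR adjusted p = 0.575 and 0.0868). lys-7 differed by -1.75 (edgeR adjusted p = 1.42e-05). hlh-30 reads were present in the double mutant, at 71.2 ± 4.56 CPM on glucose and 48.4 ± 6.94 CPM on NGM. The counts are per gene and do not show which part of it the reads cover, so this level is no check of the deletion.

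Since the sperm score moved with the medium in pgph-2 o/e animals, the glucose effect was also fitted over all 32 libraries with the sperm score as a covariate. In this fit 210 genes were higher (1.28%) and 86 lower (0.524%) of 16408 tested, and 186 of the 999 risen and 73 of the 1968 fallen genes kept their call. The score did not overlap between the 2 media of pgph-2 o/e animals, so the values at equal score rest on the relation of each gene to the score across all genotypes. The score was made from sperm genes, the MSPs among them, so a value near 0 for those genes in this fit follows from how the score was made, and the median of the MSPs was -0.17. Vitellogenins, which are not in the score, had no calls and a median of 0.05, and col-60, col-63 and rol-1 had log2 fold changes of -0.39, -0.65 and -0.70. far-3 kept 4.79 (edgeR adjusted p = 2.08e-10) and fat-7 kept 2.56 (edgeR adjusted p = 1.12e-08). cyp-33C8, grl-4, abu-15 and col-41 kept calls at 2.30, 1.80, 1.96 and 2.02, each smaller than without the score. clec-169, hsp-16.41, lipl-1 and lbp-8 kept calls at -3.24, -3.74, -2.42 and -3.05, and lys-7 was called at -1.15 (edgeR adjusted p = 0.0182). pgph-2 had 0.996 (edgeR adjusted p = 0.0341) and gpdh-1 0.75 (edgeR adjusted p = 0.456). In this fit 11 of 149 collagens were higher and 4 lower, and 10 of 60 abu and pqn genes were higher. Whether the animals on glucose were at the same point of the L4 to adult transition as those on NGM was not tested, and sperm, oocyte and yolk transcripts and the adult marker col-19 all moved with the medium.

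**Figure D5:**
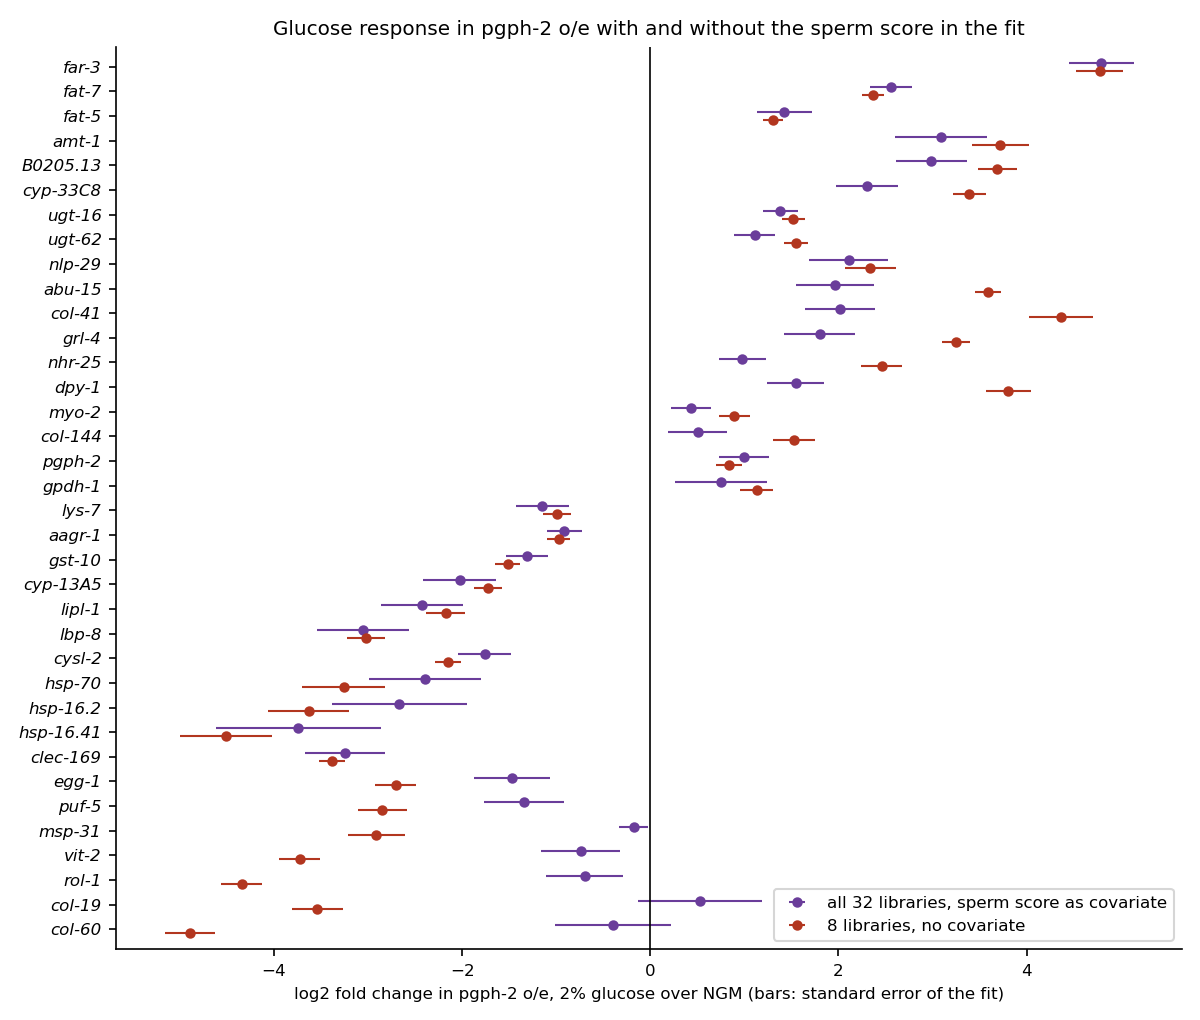
Log2 fold change of glucose over NGM in pgph-2 o/e animals, fitted with the sperm score as a covariate over 32 libraries (upper point) and fitted on the 8 libraries without it (lower point), for named genes, with bars for the standard error. The points of far-3 (4.79 and 4.78), fat-7 (2.56 and 2.36) and clec-169 (-3.24 and -3.38) lie close together, while those of vit-2 (-0.74 and -3.73), msp-31 (-0.18 and -2.91, a gene of the score itself) and col-60 (-0.39 and -4.89) lie far apart.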

How the data were processed

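Whole animals were collected for RNA-seq as L4/young adults, 4 libraries for each of 4 genotypes on 2% glucose or NGM, after synchronization with hypochlorite and feeding on OP50 bacteria. RNA was extracted with Trizol, selected with poly-T beads and prepared with a NEBNext kit that does not mark strand. The authors aligned the reads with Hisat2 and counted them per gene with featureCounts (version 1.5.0-p3 in the submitters' processing notes), against WBcel235. The deposited file holds these raw counts for 46589 genes and 32 libraries, with gene coordinates and gene lengths in bases, also given by the authors. How reads that match several genes were treated is not given in the sources used here, so close copies (MSP, vit-3 to vit-5, hsp-16 and abu genes) are uncertain as single genes, as are genes overlapping another on either strand. Reads of rRNA genes made up 5.33 to 6.31% of the counts in the 8 pgph-2 o/e libraries and 5.11 to 8.03% over all 32 libraries. No pair of libraries held identical values.

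Of the counts, the 8 pgph-2 o/e libraries (glucose over NGM), and for comparison the WT and the pgph-2 o/e; hlh-30 libraries, were tested with edgeR 4.0.16 (R 4.3.3, TMM scaling, filterByExpr with a minimum count of 10 and total of 15, quasi-likelihood test, two-sided, Benjamini-Hochberg adjustment over all genes tested). Calls needed an adjusted p of 0.05 or less together with a log2 fold change of 1 or more in size. The differences from WT and from the double mutant were interaction contrasts over 16 libraries. Levels are CPM after TMM scaling over 32 libraries, given with the SD of 4 libraries, and log2 CPM for the principal components and the sperm score used a prior count of 2. CPM depend on gene length, so levels are compared between libraries and not between genes. The test was tried on simulated counts of 14855 genes, where edgeR called 84 of 96 genes changed by 1.5 and 92 of 97 changed by 2 on the log2 scale for the glucose effect in pgph-2 o/e animals, with 1 false call. For the difference from WT, on 15589 genes, it called 87 of 100 genes changed by 2 and 89 of 97 changed by 3, with 4 false calls. Changes of 1, the fold limit, were not simulated. The simulations changed a small share of the genes, up or down at random, whereas in the real counts many genes differed and more fell than rose. They therefore do not show how the test or the scaling behaves in that setting.

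Alternatives were DESeq2 1.42.0, DESeq2 size factors, total counts in place of TMM, no filter, at least 10 counts in every library, the replicate number as a block, all 32 libraries in one fit, the same fit with the sperm score (the mean log2 CPM of 88 sperm genes), the adjusted p alone, and leaving out each library. Genes named in the text are pgph-2 and hlh-30; the 10 called genes of largest rise and of largest fall with a mean of at least 5 CPM and no overlap, and the 5 with the highest mean CPM in each direction; up to 4 called members and the most abundant member of each of 50 gene lists; all genes for glycerol, glycogen, trehalose, AMPK and yolk; and daf-16, skn-1, pha-4, eat-2, lys-7 and col-19. The members and lists were chosen with earlier results of these data known. The hlh-30 libraries without the transgene entered the fits over all 32 libraries, and their sperm score and summed levels are given beside those of the other groups. Python 3.11.15, numpy 2.4.6 and pandas 2.3.3 were used for summaries.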

Additional observations from a re-analysis of the deposited data

Results flagged for a closer look

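The glucose effect differed between pgph-2 o/e and WT animals, by edgeR's interaction contrast, in 992 genes above 0 and 2239 genes below 0, and between pgph-2 o/e animals and the double mutant in 1033 genes above 0 and 1925 below 0. The values that follow are the glucose effect in pgph-2 o/e animals minus that in WT on the log2 scale. Among cuticle genes above 0, the difference was 5.22 for col-41, 4.54 for dpy-1, 4.37 for col-54, 2.48 for col-166, 2.27 for col-10, 2.08 for col-144 and 1.37 for col-125. Molting and matrix genes followed, with 3.61 for grl-4, 3.51 for grl-21, 2.55 for nas-30, 2.47 for nhr-25 and 1.77 for mlt-7, and the pharyngeal cuticle family with 3.13 for abu-6, 3.04 for abu-15, 2.89 for abu-8 and 2.80 for abu-7. Also above 0 were C29F3.3 at 5.16, idpp-12 at 4.35, idpc-7 at 4.11, nspb-11 at 3.72, B0205.13 at 3.62 and amt-1 at 3.20. Immune and detoxification genes above 0 were fipr-3 at 3.76, nlp-29 at 2.45, cyp-33C8 at 3.50, ugt-19 at 2.52 and ugt-62 at 2.12. In the pharynx eat-2 stood at 1.77 and myo-5 at 1.36, and the aquaporin gene aqp-8 at 1.23. Without WT NGM library 3, C29F3.3 was at 4.54, idpp-12 at 3.72, idpc-7 at 3.37, nspb-11 at 3.08 and grl-21 at 2.83.

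Below 0, yolk genes reached -7.35 for vit-5, -5.04 for vit-3, -4.65 for vit-4, -4.33 for vit-2, -3.89 for vit-6 and -1.11 for vit-1. Sperm and germline genes stood at -4.70 for msp-65, -3.62 for msp-31, -2.88 for spe-8, -2.70 for spe-18, -1.5 for gld-1 and -1.26 for deps-1. Oocyte and eggshell genes stood at -6.36 for perm-2, -6.08 for perm-4, -4.03 for puf-5, -3.65 for egg-1 and -2.0 for cbd-1. Cuticle and matrix genes stood at -6.68 for col-60, -6.26 for col-120, -5.77 for col-19, -5.64 for col-63, -5.29 for rol-1, -4.54 for col-71, -4.50 for col-38, -3.55 for wrt-4, -2.97 for wrt-6 and -1.43 for sqt-3. Metabolic genes stood at -3.20 for lipl-1, -2.96 for elo-8, -2.65 for acdh-8, -2.64 for pck-3, -2.49 for acs-10, -1.96 for gpd-1, -1.48 for pfk-1.2 and -1.27 for gpd-4. With the sperm score in the fit, the differences of elo-8, acdh-8, pck-3, acs-10 and pfk-1.2 changed sign (below). The remaining genes were C14F11.4 at -5.99, ttr-14 at -5.75, E01G4.6 at -4.47, asp-12 at -2.85, his-70 at -2.14, hsp-16.41 at -2.10, clec-61 at -2.05, Y39B6A.1 at -1.64, hsp-70 at -1.58, osm-8 at -1.48, cpz-1 at -1.34 and ilys-5 at -1.02. Without NGM library 1 of pgph-2 o/e, gpd-4 was at -0.98 and ilys-5 at -0.89, under the fold limit (ilys-5 also at -0.99 to -0.98 without glucose library 1 of pgph-2 o/e or WT NGM library 3 or 4 or WT glucose library 2), and without NGM library 2 hsp-16.41 was at -1.51 and hsp-70 at -0.95. The call for eat-2 was lost without WT NGM library 3 or 4, WT glucose library 2 or 3, or glucose library 2 of pgph-2 o/e (1.52 to 1.71), and vit-4 was at -3.96 without WT glucose library 2.

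Single libraries stood far from the other 3 of their group in 24 of 382 groups of 4 values (the gap to the nearest library took most of the range of the group), where chance alone gives about 1 in 20. Most of these were NGM library 1. Its values were 2.58 CPM for idpp-12, 32.5 CPM for perm-2, 944 CPM for ram-2, 2176 CPM for col-71, 54.5 CPM for puf-5, 572 CPM for myo-2, 10.3 CPM for abu-7, 1626 CPM for ilys-5, 46.5 CPM for his-24, 165 CPM for gyg-1, 72.6 CPM for T04A8.7, 102 CPM for aak-2 and, on the low side, 70.8 CPM for tre-1. Its summed levels were 10268 CPM for glycolysis and gluconeogenesis, 4669 CPM for desaturases and elongases, 4019 CPM for fat synthesis and storage, 424 CPM for AMPK and 865 CPM for histones. On glucose, library 1 stood apart for gyg-1 at 136 CPM and aagr-4 at 170 CPM, library 3 for tps-2 at 86.1 CPM and cysl-2 at 39.3 CPM, and library 4 for acl-5 at 25.5 CPM. NGM library 4 stood apart for aakg-3 at 2.26 CPM.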

How the results depend on the processing

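The number of genes called for glucose in pgph-2 o/e animals (999 higher, 1968 lower) stayed within 1.5 times under DESeq2 (1051 and 2011), DESeq2 size factors, total counts, no filter, the stricter filter, the replicate block (958 and 1927), the fit of all 32 libraries, and without any single library (915 to 1071 higher, 1864 to 2086 lower). It moved to 2598 and 3233 on the adjusted p alone, and to 210 and 86 with the sperm score. The difference from WT moved to 2245 genes above 0 on the adjusted p alone and to 86 above and 59 below with the sperm score, and the difference from the double mutant to 2405 above 0 on the adjusted p alone and to 194 above and 215 below with the score. The WT counts depended most on the setting. The genes higher in WT (91) became 263 in DESeq2, 159 without a filter, 219 in the fit of all 32 libraries, 266 with the sperm score and 181 on the adjusted p alone, and ranged from 38 (without WT glucose library 4) to 288 (without WT NGM library 1) when single libraries were left out, with 39, 41 and 46 without NGM library 4, NGM library 2 and glucose library 2, and 206 without glucose library 1. The genes lower in WT (89) became 136 in the fit of all 32 libraries, 135 with the score and 370 on the adjusted p alone, and ranged from 54 (without WT glucose library 4) to 154 (without WT NGM library 1). The cause of these changes was not tested.

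Deviations from the group means were weakly or negatively correlated between libraries with the same replicate number (-0.133 to 0.024 in pgph-2 o/e, -0.409 to 0.009 in WT and -0.080 to 0.182 in the double mutant). Of 8 libraries each, 0 in pgph-2 o/e, 0 in WT and 3 in the double mutant correlated best with their own number. The main fits did not pair by number, and these values cannot tell whether a number marks a shared batch. With the replicate number as a block, WT gave 21 genes higher and 41 lower, and tre-1 in pgph-2 o/e animals was at 0.000.

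Some single genes changed sign. With the sperm score, the log2 fold change in pgph-2 o/e animals was 0.19 for spe-18 (a gene of the score), 0.033 for glh-1, 0.53 for col-19, 0.40 for vit-3, 0.13 for vit-1, 1.00 for vit-5, 0.58 for pfk-1.2, 0.31 for elo-8, 0.046 for acdh-8, 0.20 for acs-10, 0.48 for his-70, -0.009 for aagr-3, 0.015 for tre-1, -0.17 for skn-1 and -0.038 for pha-4. The difference from WT with the score was 0.19 for pgph-2, 0.275 for spe-18, 0.685 for vit-3, 0.65 for vit-1, -0.17 for cyp-13A5, 0.014 for pck-3, 0.66 for pfk-1.2, 0.023 for fat-7, 0.16 for elo-8, 0.104 for acdh-8, 0.32 for acs-10 and 0.42 for his-70. With total counts, the value was 0.031 for hsp-1, 0.046 for gob-1, 0.029 for tre-1, 0.044 for tre-3, 0.014 for tre-4, 0.035 for aak-2 and 0.007 for aakb-1, and with the stricter filter 0.008 for gob-1, 0.003 for tre-1 and 0.009 for tre-3. Without single libraries, hsp-1 ranged from -0.12 to 0.13, gob-1 from -0.033 to 0.026, tre-1 from -0.072 to 0.023, tre-3 from -0.02 to 0.037, tre-4 from -0.09 to 0.016, aak-2 from -0.092 to 0.11, aakb-1 from -0.11 to 0.019, aakb-2 from -0.16 to 0.01, aakg-4 from -0.11 to 0.016, aakg-5 from -0.022 to 0.11 and skn-1 from -0.034 to 0.10, and the difference of pgph-2 from WT from -0.12 to 0.12.

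Lists under the stricter filter lost members to testing: vitellogenins then had 3 falls in place of 6, and heat shock genes 4 in place of 8. Depth limits genes of low count, which are left out of the tests, and with 4 libraries per group the smallest p of an exact permutation test over 70 relabellings is 0.0286.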

Other observations

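Calls were also counted by chromosome. On the X chromosome 185 of 2081 genes rose (8.89%) and 120 fell (5.77%), with a median log2 fold change of 0.238. On chromosome V 345 of 3019 genes rose and 356 fell (11.8%). On chromosome IV 5.29% rose and 18.7% fell, on II 5.58% and 15.7%, on I 3.36% and 14.7%, and on III 4.65% and 10.8%. Over all genes the shares were 6.65% and 13.1%. These shares were not tested against each other, and genes of a chromosome are not independent.

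Insulin-like peptide genes were higher in 5 of 23 cases (ins-33, ins-30, ins-9, ins-14 and ins-12) and lower in 1 (ins-37), against 6.65% and 13.1% over all genes. Of 16 genes named for their response to infection or to daf-16 (irg and dod genes), 2 rose and 3 fell in pgph-2 o/e animals, while 0 of 15 rose and 4 fell in WT (1 higher at an unadjusted p under 0.05, and 0 higher in DESeq2). Of 80 ribosomal protein genes 1 fell, and of 11 genes of the mitochondrial genome 0 were called (0 at an unadjusted p under 0.05, and 0 in DESeq2).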
